A study of Homo sapiens with 15 samples.

Results

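Transcripts built of 2 exons carry a single splice junction, so an exon junction complex (EJC) can sit at 1 place on them and the upstream exon is the only one that ends at a junction. Their exons were selected on 3 criteria: the transcript has 2 exons, the symbol does not begin with HOX, and the read counts of the exon sum to at least 20 over the 15 libraries. Of the 15946 exons of two-exon transcripts other than HOX transcripts, 1752 met the minimum, out of 279143 exons in the whole table. They belong to 1153 transcripts, of which 599 have both exons above the minimum and 554 have one. The exons comprise 755 upstream and 987 downstream exons and 10 exons of unknown strand. Since the exons were chosen by their summed counts, those sums are a description: they run from 20 to 12820 with a median of 80, 69 exons sit just inside the minimum at 20 or 21 counts, and 81 sit just outside it at 18 or 19 counts.

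Splicing deposits the EJC on the upstream exon a short distance before the junction, around the RNA-clamping helicase EIF4A3 with MAGOH and its partner RBM8A. RNPS1 and CASC3 are peripheral proteins that join the core at different stages in the life of a messenger RNA. A ribosome that reads through the upstream exon removes the complex, and a complex left downstream of a stop codon can promote decay of the RNA.

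The cells were HEK293 Flp-In TRex, a line derived from human embryonic kidney, and the footprint lines stably expressed FLAG-tagged MAGOH, CASC3 or RNPS1. RIPiT isolated RNA fragments through the FLAG tag of 1 protein and then an antibody against a second one. The groups are crosslinked CASC3-EIF4A3 with cycloheximide, crosslinked RNPS1-EIF4A3 with cycloheximide, and the same 2 pairs crosslinked without it, with 2 libraries each. Cycloheximide, which stalls translation elongation, was given at 100 µg/ml for 3 h, and crosslinking used 0.1% formaldehyde for 10 min. The native footprints, made without crosslinking or cycloheximide, are MAGOH-RNPS1, MAGOH-CASC3, RNPS1-EIF4A3, CASC3-EIF4A3 and MAGOH-EIF4A3 with 1 library each. RNA-seq of 2 libraries came from untreated cells without a tagged protein, from rRNA-depleted and base-hydrolysed RNA, and it stands beside treated and untreated footprints alike. CASC3 and RNPS1 footprints come from different lines, so the protein and the line cannot be told apart.

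Total exon counts ran from 467700 to 8056882 per library. The crosslinked RNPS1 library 2 with cycloheximide is the shallowest at 467700 counts and stands apart from its partner: over 77353 exons, log2 levels of the 2 correlated at r = 0.2594, against 0.6883 to 0.9072 for the other replicate pairs. CPM scales counts to a library total of common size, and here sums all exons of a gene. Of 5 genes taken as markers of the line, the neurofilament gene NEFL had 365 and 331 CPM in RNA-seq, while LHX1 had 4.36 and 9.30 CPM, PAX2 3.49 and 0.845 CPM, SALL4 0 and 3.38 CPM and the second neurofilament gene NEFM 0.873 and 0 CPM, so the label rests on NEFL. Of 6 markers of other cell types, KRT5, CD3E, PTPRC, HBB and ALB had 0, 1, 4, 8 and 19 counts over all 15 libraries, and the fibroblast collagen COL1A1 had 8.73 and 9.30 CPM in RNA-seq. Of the 1752 exons, 436 overlap an exon of another gene, and the counting is not stated to use strand, so reads of overlapping genes cannot be told apart there. Of the 1153 transcripts, 821 belong to genes with no annotated transcript of 3 or more exons, and 503 of these also overlap no other gene. Where a gene has a longer transcript, its reads cannot be told apart from those of the two-exon transcript. With the 503 alone, the upstream exon held 26.4% to 47.9% of counts in footprints and 22.7% and 23.7% in RNA-seq.

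The last 50 bases before the junction are shown for 8 transcripts whose use of the upstream exon the results below turn on. Each printed stretch is the 3' end of the upstream exon, 5' to 3', from GENCODE v29 transcripts on GRCh38 (hg38), with capitals on bases 27 to 20 upstream of the junction, counted from 1 at the last base of the exon, which is where the EJC is known to sit. In all of them the junction lies in the coding sequence.
PCDH7: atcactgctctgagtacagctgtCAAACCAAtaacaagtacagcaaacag
PMAIP1: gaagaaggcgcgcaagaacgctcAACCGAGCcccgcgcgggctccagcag
MARCKS: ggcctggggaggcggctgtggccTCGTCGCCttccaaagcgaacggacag
HS6ST3: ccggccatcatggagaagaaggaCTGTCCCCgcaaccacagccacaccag
YWHAH: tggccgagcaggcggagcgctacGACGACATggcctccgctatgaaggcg
KCNG3: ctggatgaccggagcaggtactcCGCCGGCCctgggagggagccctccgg
MSL2: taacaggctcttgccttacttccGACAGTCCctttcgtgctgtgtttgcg
CEBPE: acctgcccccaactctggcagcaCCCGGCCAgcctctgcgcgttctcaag
The stretches lie at chr4:30724547-30724596 (PCDH7, plus strand), chr18:59900186-59900235 (PMAIP1, plus strand), chr6:113857798-113857847 (MARCKS, plus strand), chr13:96091520-96091569 (HS6ST3, plus strand), chr22:31944771-31944820 (YWHAH, plus strand), chr2:42492837-42492886 (KCNG3, minus strand), chr3:136194972-136195021 (MSL2, minus strand) and chr14:23118582-23118631 (CEBPE, minus strand). The first 6 are transcripts whose upstream exon took a larger share of counts in both footprints than in RNA-seq, MSL2 is one whose share differed between CASC3 and RNPS1, and CEBPE is one whose share was lower in RNPS1 footprints than in RNA-seq. Their GC content runs from 42% for PCDH7 to 74% for KCNG3.

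Among the 1153 transcripts, 638 are annotated as protein coding, 236 as antisense and 168 as lincRNA. The junction lies in a noncoding transcript in 488 cases, in the coding sequence in 318, in the 5' UTR in 278 and in the 3' UTR in 22, and 47 could not be matched to both exons of the annotation. Upstream exons had a median length of 291 nt and a median GC content of 63.6%. Downstream exons were longer, at a median of 1469 nt, and poorer in GC, at 48.4%. Together the upstream exons make up 18.4% of the exon length of these transcripts.

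Across the 9 footprint groups the ratio of footprint to RNA-seq lay around 0 on the log2 scale for upstream exons, with treated CASC3 the lowest, and well below 0 for downstream exons. The ratio compares CPM with a prior of 2 counts, so it is a ratio of library shares. Exons entered by a count summed over 13 footprint and 2 RNA-seq libraries: 83 upstream and 37 downstream exons had 0 counts in both RNA-seq libraries, and 1 exon had 0 in all footprints. An exon that passed with no RNA-seq counts had to lie above RNA-seq in some footprint group, so the medians and the shares above RNA-seq describe the selected exons and were not tested. Over the 755 upstream exons its median was -0.96 for treated CASC3, 0.23 for untreated CASC3, 0.00 for treated RNPS1 and 0.15 for untreated RNPS1. Shares of these exons above RNA-seq followed at 19.6%, 58.3%, 49.7% and 55.1%, in the same order. Over all 140723 exons at or above the same minimum, these shares were larger, at 66.9%, 64.0%, 69.4% and 73.7%. The medians over all exons were 0.57, 0.56, 0.59 and 0.83, so upstream exons lay below them in each crosslinked group. Treated CASC3 footprints thus had the lowest upstream median of the crosslinked groups. The 2 treated RNPS1 libraries differ here: the summed share of upstream exons over RNA-seq (log2) was -0.87 in library 1 and 0.31 in the shallow library 2. In treated CASC3 it was -1.11 and -0.94, so treated RNPS1 library 1 lies near treated CASC3. In the native libraries the upstream median was 0.33 for MAGOH-RNPS1, 0.32 for MAGOH-CASC3, 0.29 for RNPS1-EIF4A3, 0.45 for CASC3-EIF4A3 and -0.30 for MAGOH-EIF4A3. Native MAGOH-EIF4A3 had 40.1% of upstream exons above RNA-seq and the other 4 native pairs had 58.5% to 61.9%. Over all exons the native shares were 70.2% for MAGOH-EIF4A3 and 61.2% to 73.5% for the other pairs.

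Over the 987 downstream exons the median ratio was -1.93 for treated CASC3, -1.20 for untreated CASC3, -1.23 for treated RNPS1 and -1.28 for untreated RNPS1, and it ran from -1.63 to -0.82 in the native libraries. At most 30.7% of downstream exons lay above RNA-seq in any group, which was native CASC3-EIF4A3, and 79 of the 987 did so in treated CASC3. First exons of transcripts with 3 or more exons had higher medians than upstream exons in untreated CASC3 (0.84), treated RNPS1 (0.70) and untreated RNPS1 (1.04), and a like one in treated CASC3 (-0.99). Single-exon transcripts, which carry no junction, had medians of -2.18 in treated CASC3, -1.12 in untreated CASC3, -1.33 in treated RNPS1 and -1.29 in untreated RNPS1. Differences between these medians were not tested.

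**Figure D1:**
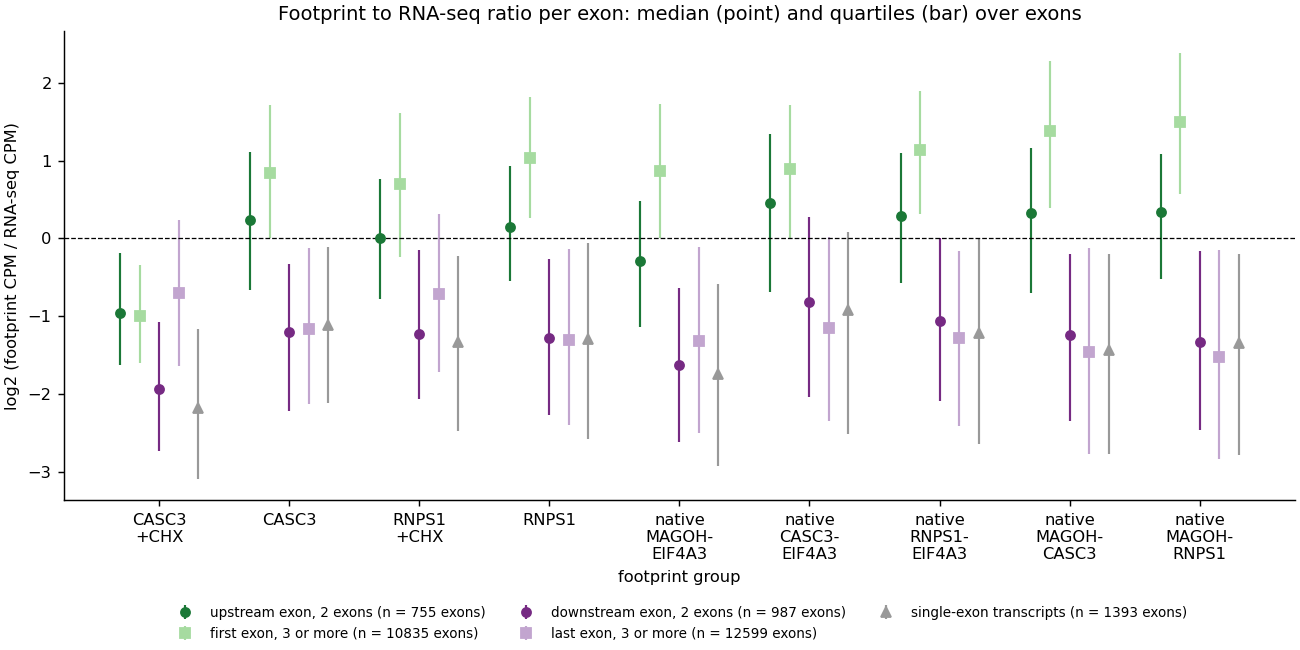
Footprint to RNA-seq ratio per exon (y axis, log2 of CPM over CPM) in the 9 footprint groups (x axis), with points at the median and bars over the quartiles of each exon class. Upstream exons of two-exon transcripts have medians between -0.96 and 0.45, above those of the downstream exons, which lie between -1.93 and -0.82.

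Within the two-exon transcripts, the upstream exon held a larger share of the counts in each of the 13 footprint libraries than in either RNA-seq library. The share, over both exons of the 1153 transcripts, averaged 40.1% ± 5.48 in footprints (SD, n = 13, range 26.98% to 47.28%), while the RNA-seq libraries had 20.2% and 20.6%. Treated CASC3 had 35.2% and 45.4%, untreated CASC3 41.2% and 47.3%, treated RNPS1 26.98% and 43.8%, and untreated RNPS1 39.7% and 44.5%. The groups of footprints overlap each other, and the lowest library is treated RNPS1 library 1. The native shares were 43.7% for MAGOH-RNPS1, 42.3% for MAGOH-CASC3, 37.9% for RNPS1-EIF4A3, 36.3% for CASC3-EIF4A3 and 36.6% for MAGOH-EIF4A3. The difference of 19.7 percentage points between the means of footprints and RNA-seq had p = 0.0190 in an exact two-sided permutation test, which is the smallest p this design allows, and 0.0190 after Benjamini-Hochberg adjustment over 5 such tests. The 13 footprint libraries differ in protein pair, line, crosslinking and cycloheximide. Their SD is thus a spread over conditions, and each such test pools unlike libraries as if they were replicates. The count-weighted GC content of both exons together was 49.8% to 59.5% in footprints and 49.3% in both RNA-seq libraries. Upstream exons are the richer in GC, so a larger upstream share raises this value by itself. Within upstream exons it was 59.1% to 67.5% in footprints, around the 61.2% and 60.8% of RNA-seq. Within downstream exons it was 44.7% to 54.0%, beside 46.1% in both RNA-seq libraries. The part of GC in the result was not tested.

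**Figure D2:**
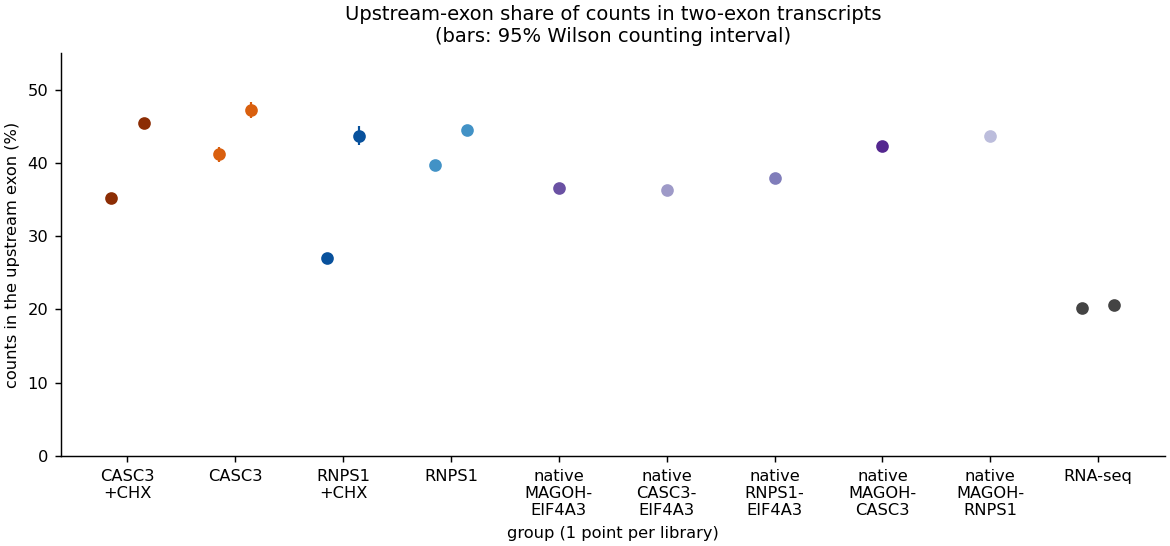
Share of the counts of two-exon transcripts that fall in the upstream exon (y axis, percent), 1 point per library by group (x axis), with 95% Wilson intervals that cover counting error only. The 13 footprint libraries lie between 26.98% and 47.28%, above the RNA-seq libraries at 20.2% and 20.6%.

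Per kilobase, the upstream exons had 1.56 ± 0.34 (log2, SD, n = 13) more counts than the downstream exons in footprints and 0.16 and 0.20 in RNA-seq, a difference of 1.38 (exact two-sided permutation p = 0.0190). First over last exons of transcripts with 3 or more exons had 1.96 to 2.98 in untreated crosslinked and native footprints, against 0.16 and 0.10 in RNA-seq. There the lean is thus not particular to two-exon transcripts. Treated RNPS1 had 0.50 and 2.33 for these exons and treated CASC3 -1.06 and -0.39, and none of this was tested. Downstream exons, which follow a junction but do not end at one, lay above single-exon transcripts per kilobase by 0.48 ± 0.55 (log2, n = 13, range -1.01 to 1.12) in footprints, and below them in RNA-seq at -1.32 and -1.64. These levels depend on the count minimum, which was set for two-exon transcripts and not for the 16153 single-exon transcripts: with no minimum, downstream exons lay below single-exon transcripts in all 13 footprint libraries, at -2.30 to -0.20, and in RNA-seq, at -2.61 and -2.93. The difference between footprints and RNA-seq was 1.96 with the minimum and 1.95 without it, each with the smallest possible exact two-sided permutation p of 0.0190. It is no gain of downstream exons. Their summed share of a library lay below RNA-seq by -2.65 to -0.76 (log2), and that of single-exon transcripts by -5.15 to -2.09. Exon by exon, the median ratios were close in untreated footprints, at -1.20 and -1.12 for CASC3 and -1.28 and -1.29 for RNPS1. Last exons of transcripts with 3 or more exons showed a difference of the same direction and larger size against single-exon transcripts, with 1.22 ± 0.94 (log2, SD, n = 13) in footprints and -1.24 and -0.92 in RNA-seq (2.30, exact two-sided permutation p = 0.0190), so it is not particular to two-exon transcripts. Two-exon transcripts as a whole took less of a footprint library than of RNA-seq, with 1.00% ± 0.31 (SD, n = 13) against 2.21% and 2.15% (difference -1.18 percentage points, exact two-sided permutation p = 0.0190). All 5 tests used the same 13 footprint libraries against the same RNA-seq pair and are not independent.

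Transcript by transcript, most single junctions showed the same lean to the upstream exon. Among transcripts with at least 20 counts in both the footprint group and RNA-seq, the upstream share was above that of RNA-seq in 231 of 400 for treated CASC3 (57.8%) and 270 of 449 for treated RNPS1 (60.1%). The count was 182 of 213 for untreated CASC3 (85.4%) and 329 of 402 for untreated RNPS1 (81.8%). Treated CASC3 had a median share of 16.8% and untreated CASC3 42.0%, each over its own transcripts, whose RNA-seq medians were 11.1% and 10.6%. In the native libraries 76.7% to 83.7% of such transcripts had a larger upstream share than in RNA-seq.

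Untreated CASC3 footprints against RNA-seq showed lower levels of most downstream exons and a mixed picture for upstream exons. Of the 1752 exons, 556 passed the filter on low counts in the untreated fit. An exon can pass this filter through the libraries of 1 group alone, which favours calls toward that group. Counts of calls here and in the other fits therefore describe the exons that passed. Named exons were in part chosen for groups that do not overlap, so non-overlap is no further support for them. Of the 556 exons, 457 had groups that do not overlap in this comparison. Of 398 tested downstream exons, 4 were higher and 314 lower in CASC3 footprints by edgeR's quasi-likelihood test at a Benjamini-Hochberg adjusted p under 0.05, and of 157 tested upstream exons 21 were higher and 43 lower. Among all 38550 exons tested, 42.4% were called, 20.6% as higher and 21.8% as lower. The median log2 fold change was -2.75 for downstream and -0.60 for upstream exons, against 0.36 over all exons. Last exons of transcripts with 3 or more exons were lower in 5280 of 7378 (median -2.41) and single-exon transcripts in 395 of 508 (-2.67). Lower levels of downstream exons are thus not particular to two-exon transcripts. First exons of transcripts with 3 or more exons were higher in 876 and lower in 304 of 3997 (0.64). Scaling by library totals in place of TMM (trimmed mean of M values) moved the median of all exons to 1.26 and the upstream split to 38 higher and 22 lower. Relative to the median of all exons the upstream median was -0.95 with TMM and -0.93 with library totals.

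PCDH7, a protocadherin of cell adhesion, has a long coding upstream exon of 4182 nt and illustrates the contrast. Its downstream exon had 3.18 and 0 CPM in untreated CASC3 footprints, against 28.8 and 25.4 CPM in RNA-seq. The footprint libraries lie far below RNA-seq (log2 fold change -4.70 ± 0.76 SE, adjusted p = 0.00024 by edgeR's quasi-likelihood test). Its upstream exon had 104 and 54.2 CPM in untreated CASC3 footprints, against 118 and 116 CPM in RNA-seq. That exon was lower by a smaller amount (-1.33 ± 0.41, edgeR adjusted p = 0.016), a call that was lost without RNA-seq library 1 (-1.43, adjusted p = 0.13) or 2 (-1.39, adjusted p = 0.14) and with scaling by library totals (-0.39). PMAIP1 encodes the pro-apoptotic BH3-only protein NOXA. Its downstream exon had 75.2 and 56.7 CPM in untreated CASC3 footprints, against 340.5 and 345 CPM in RNA-seq. That exon was lower too (-3.13 ± 0.47, edgeR adjusted p = 0.00014). The upstream exon had 47.7 and 64.2 CPM in CASC3 footprints beside 68.1 and 64.2 CPM in RNA-seq.

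A few exons were higher in CASC3 footprints. C1orf216, a gene of unknown function with its junction in the 5' UTR, had 25.4 and 44.1 CPM in its upstream exon (chr1:35718707-35719472) in CASC3 footprints, against 1.75 and 1.69 CPM in RNA-seq. Both CASC3 libraries are far above RNA-seq (3.58 ± 0.71, edgeR adjusted p = 0.0011). CEBPG, a bZIP transcription factor, showed opposite changes in its exons. Its upstream exon (chr19:33373330-33373895, 5' UTR) had 31.8 and 297 CPM in CASC3 footprints, against 11.3 and 8.45 CPM in RNA-seq. CASC3 library 2 is much the higher, and the change of 3.41 ± 0.95 (edgeR adjusted p = 0.0093) was 0.69 without it (adjusted p = 0.57). The downstream exon of CEBPG had 38.1 and 35.3 CPM in CASC3 footprints, against 340.5 and 329.6 CPM in RNA-seq, and was lower in both libraries (-3.93 ± 0.48, edgeR adjusted p = 4e-05).

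ZNF865 is a zinc finger gene with an upstream exon in the 5' UTR (chr19:55605405-55605732). It had 41.3 and 126 CPM in untreated CASC3 footprints, or 139 counts, and 0 counts in both RNA-seq libraries, which is at least 62.1-fold higher against a floor of 3 counts over the group. The upstream exon passed the filter through the CASC3 libraries alone, so this ratio only describes ZNF865. Its downstream exon had 71.0 and 70.5 CPM in CASC3 footprints, against 12.2 and 10.99 CPM in RNA-seq. ZNF865 was thus among the 4 tested downstream exons that were higher, the others being LRFN1, TMEM121 and a clone transcript, RP11-54O7.14, named after their values were seen (1.87 ± 0.44, edgeR adjusted p = 0.0032), and that call was lost without RNA-seq library 1 (1.84, adjusted p = 0.075) or 2 (1.75, adjusted p = 0.087). GPX1, the selenoprotein glutathione peroxidase, went the other way, with 11.7 and 5.04 CPM in the upstream exon in CASC3 footprints, against 31.4 and 29.6 CPM in RNA-seq (-2.60 ± 0.53, edgeR adjusted p = 0.0012).

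Untreated RNPS1 footprints against RNA-seq showed a similar split between the exons. Of the tested downstream exons 7 were higher and 334 lower, and of the upstream exons 8 were higher and 67 lower, where 50.3% of all exons tested were called, 25.8% as higher and 24.5% as lower. Median log2 fold changes were -2.97 for downstream and -0.84 for upstream exons, against 0.52 over all exons. Last exons of transcripts with 3 or more exons were lower in 5720 of 7378 (median -2.84) and single-exon transcripts in 426 of 508 (-3.32). First exons of transcripts with 3 or more exons were higher in 1083 and lower in 441 of 3997 (0.78). With library totals the median of all exons moved to 1.58 and the upstream split to 33 higher and 33 lower. CASC3 and RNPS1 are compared with the same RNA-seq libraries, so the agreement of their counts is no independent result.

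HS6ST3, which adds 6-O-sulfate to heparan sulfate, had opposite changes in its exons in RNPS1 footprints. Its upstream exon had 43.8 and 47.3 CPM in RNPS1 footprints, against 6.11 and 3.38 CPM in RNA-seq. The RNPS1 libraries are several times above RNA-seq (2.44 ± 0.52, edgeR adjusted p = 0.0012), a call that missed the threshold without RNA-seq library 2 (2.04, adjusted p = 0.051). Its downstream exon had 6.38 and 3.86 CPM in RNPS1 footprints, against 33.2 and 37.2 CPM in RNA-seq (-3.63 ± 0.52, edgeR adjusted p = 3.5e-05). The antisense RNA MMP25-AS1 had 29.3 and 26.8 CPM in its upstream exon in RNPS1 footprints and 0 and 0.845 CPM in RNA-seq. These are 180 counts and 1 count, a ratio of 64.5 with a 95% exact (Clopper-Pearson) counting interval of 11.4 to 2563.

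Lower exons in RNPS1 footprints included PCDH7 downstream at 1.70 and 0.724 CPM, against 28.8 and 25.4 CPM in RNA-seq (-5.33 ± 0.66, edgeR adjusted p = 9.6e-06). PMAIP1 downstream had 76.5 and 35.0 CPM in RNPS1 footprints, against 340.5 and 345 CPM in RNA-seq (-3.46 ± 0.47, edgeR adjusted p = 2.3e-05). GPX1 upstream had 5.10 and 3.38 CPM in RNPS1 footprints, against 31.4 and 29.6 CPM in RNA-seq (-3.68 ± 0.50, edgeR adjusted p = 2.3e-05). In none of these do the RNPS1 libraries reach the RNA-seq level, and 481 of the 556 tested exons had groups that do not overlap in this comparison. COX8A, a subunit of cytochrome c oxidase, had a short upstream exon of 188 nt with 1.70 and 3.38 CPM in RNPS1 footprints, against 22.7 and 32.1 CPM in RNA-seq (-4.14 ± 0.58, edgeR adjusted p = 3e-05). COX8A overlaps another gene, whose reads cannot be told apart.

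Exon use, the division of a transcript's reads between its exons, leaned to the upstream exon in both untreated footprints. Of 111 two-exon transcripts tested, the upstream exon gained in 62 and lost in 1 in CASC3 footprints, and gained in 62 and lost in 2 in RNPS1 footprints, by edgeR's exon use test with Benjamini-Hochberg adjustment. Over all transcripts tested, exon use was called in 64.7% for CASC3 and 71.6% for RNPS1. By junction position, the upstream exon gained in 41 of 74 coding and 14 of 16 5' UTR transcripts in CASC3 footprints, and in 45 of 74 and 6 of 16 in RNPS1 footprints. Without RNA-seq library 2 the RNPS1 total of 64 became 42. The test sets the exons of a transcript against each other, so a scaling factor common to a library enters both.

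PCDH7 had 97.9% of its counts in the upstream exon in untreated CASC3 footprints (95% Wilson interval 94.1% to 99.3%) and 99.4% in untreated RNPS1 footprints, against 81.2% in RNA-seq (76.7% to 85.0%), with adjusted p = 0.0012 for CASC3 and 3.4e-07 for RNPS1 by edgeR's exon use test. For YWHAH, the 14-3-3 protein eta, the share was 72.2% in CASC3 footprints (56.0% to 84.2%), 44.9% in RNPS1 footprints and 12.9% in RNA-seq (8.88% to 18.3%), with edgeR adjusted p = 9.1e-05 for CASC3. In both PCDH7 and YWHAH the CASC3 interval lies above that of RNA-seq. HS6ST3 had 70.8% in CASC3 footprints, 90.6% in RNPS1 footprints and 11.8% in RNA-seq (edgeR adjusted p = 1.6e-07 for RNPS1). KCNG3, a modifier subunit of voltage-gated potassium channels, had 28 upstream and 7 downstream counts in CASC3 footprints, 89.4% upstream in RNPS1 footprints and 21.2% in RNA-seq (edgeR adjusted p = 2.8e-06 for RNPS1).

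The shares of PMAIP1 were 45.3% in CASC3 footprints, 45.8% in RNPS1 footprints and 16.2% in RNA-seq. Its CASC3 call at adjusted p = 0.0030 by edgeR was lost without RNA-seq library 1 (adjusted p = 0.060) or 2 (adjusted p = 0.071). MARCKS, an actin-binding substrate of protein kinase C, had 37.0% in CASC3 footprints, 24.8% in RNPS1 footprints and 11.1% in RNA-seq. Its CASC3 call at edgeR adjusted p = 0.0025 was lost without RNA-seq library 1 (adjusted p = 0.059). CEBPE, a transcription factor known from granulocyte development, ran against the majority: its upstream exon held 38.1% of its counts in RNPS1 footprints and 57.2% in CASC3 footprints, against 68.2% in RNA-seq. The RNPS1 call at edgeR adjusted p = 0.0086 was lost without RNPS1 library 2 (adjusted p = 0.055), RNA-seq library 1 (adjusted p = 0.15) or RNA-seq library 2 (adjusted p = 0.099).

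CASC3 against RNPS1 footprints without cycloheximide differed at few single junctions, mostly toward CASC3 on upstream exons. Of the tested exons, 22 upstream exons were higher and 2 lower in CASC3 footprints, and 12 downstream exons were higher and 3 lower (of POU4F1, OVCA2 and a clone transcript, each overlapping another gene), where 8.81% of all exons tested were called, 6.72% as higher and 2.1% as lower. With scaling by library totals, which moved the median of all exons to -0.20 in place of -0.03, the splits were 19 higher and 3 lower upstream and 8 higher and 5 lower downstream, while with DESeq2 size factors all 13 called downstream exons were higher. Upstream exons with a junction in the 5' UTR had 10 of 16 tested exons higher with a median of 2.56 (log2). For coding junctions 7 of 86 were higher and 2 lower, with a median of 0.24. These are the exons that passed the filter, out of 278 transcripts with a 5' UTR junction and 318 with a coding one. An exon can pass through CASC3 libraries alone, as ZNF865 did, so the split is partly set by the filter and is no test of junction position. With no filter, 31 of 755 upstream exons were higher and 7 lower. The total of 39 calls fell to 10 without CASC3 library 2, to 18 without RNPS1 library 1 and to 6 without RNPS1 library 2, and was 59 without CASC3 library 1.

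ZNF865 was again among the higher upstream exons, with 41.3 and 126 CPM in CASC3 footprints, against 0.425 and 0 CPM in RNPS1 footprints. These are 139 counts and 1 count, a ratio of 520 with an exact counting interval of 91.7 to 20665. Since the exon entered through the CASC3 libraries alone, this ratio only describes it. ZNF358, another zinc finger gene, had 14.8 and 27.7 CPM in CASC3 footprints, against 0 and 0.241 CPM in RNPS1 footprints, a ratio of 135 (22.7 to 5460). MRPL57, a protein of the mitochondrial ribosome, had 13.8 and 12.6 CPM in CASC3 footprints, against 0.425 and 0.483 CPM in RNPS1 footprints, a ratio of 28.7 (8.66 to 149). All 3 have their junction in the 5' UTR, though the MRPL57 call was lost without RNPS1 library 2 and ZNF358 overlaps other genes. Their groups do not overlap, which the choice of named exons in part required and which 258 of the 556 tested exons showed. CDK5R1, the p35 activator of the kinase CDK5, had 19.1 and 16.4 CPM in CASC3 footprints, against 0.850 and 1.21 CPM in RNPS1 footprints (4.03 ± 0.65, edgeR adjusted p = 0.0021).

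GEMIN4, a component of the SMN complex, had 13.8 and 31.5 CPM in its upstream exon in CASC3 footprints, against 1.28 and 2.17 CPM in RNPS1 footprints (3.68 ± 0.72, edgeR adjusted p = 0.0063). In edgeR's test the call was lost without CASC3 library 2 (2.82, adjusted p = 0.20) or RNPS1 library 2 (4.14, adjusted p = 0.057). CEBPG had 31.8 and 297 CPM in CASC3 footprints, against 5.10 and 38.6 CPM in RNPS1 footprints. The groups overlap there, and the change of 3.03 ± 0.85 (edgeR adjusted p = 0.038) was 0.38 without CASC3 library 2 (adjusted p = 0.82) and 2.15 without RNPS1 library 1 (adjusted p = 0.15). HS6ST3 was lower in CASC3 footprints, at 12.7 and 6.30 CPM, against 43.8 and 47.3 CPM in RNPS1 footprints (-2.17 ± 0.49, edgeR adjusted p = 0.013), and lost the call without CASC3 library 2 (-1.90, adjusted p = 0.10) or RNPS1 library 2 (-2.10, adjusted p = 0.071).

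Exon use differed between CASC3 and RNPS1 footprints in 7 of 111 tested transcripts, with the upstream exon gaining in 6 and losing in 1, where 8.59% of all transcripts tested were called. The upstream exon of ZNF865 passed the filter through the CASC3 libraries alone, so its call here is a description. ZNF865 had 53.1% of its counts upstream in CASC3 footprints and 0.926% in RNPS1 footprints (edgeR adjusted p = 0.00023), and missed the threshold without RNPS1 library 2. GEMIN4 had 40.0% and 4.26%, in that order (edgeR adjusted p = 0.0010), and lost the call without CASC3 library 2 (adjusted p = 0.18) or RNPS1 library 1 (adjusted p = 0.068). MSL2, an E3 ubiquitin ligase of the MSL histone acetyltransferase complex, was the 1 that lost, with 47.9% in CASC3 footprints and 84.6% in RNPS1 footprints (edgeR adjusted p = 0.024). It lost the call without any 1 of 5 of the 6 libraries, CASC3 library 1 being the exception (adjusted p between 0.082 and 0.39). In the count of 7 itself, leaving out CASC3 library 1 gave 23, and leaving out CASC3 library 2, RNPS1 library 1 or RNPS1 library 2 gave 1 each.

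The position of the junction within the message went with the upstream share. Where the junction lies in the 5' UTR, the upstream exon held 24.1% and 36.8% of counts in untreated CASC3 footprints and 12.9% and 17.6% in untreated RNPS1 footprints, against 4.55% and 5.32% in RNA-seq. With the junction in the coding sequence it held 45.3% and 51.2% in CASC3 footprints and 45.4% and 51.6% in RNPS1 footprints, against 22.5% and 21.6% in RNA-seq. The untreated crosslinked CASC3 and RNPS1 libraries therefore lie apart for 5' UTR junctions and together for coding junctions. The native libraries lie much closer for 5' UTR junctions. CASC3-EIF4A3 had 12.65% there and RNPS1-EIF4A3 11.98%, and MAGOH-CASC3 had 15.7% and MAGOH-RNPS1 14.3%. Upstream exons also differed in length between the classes of junction. Their median was 187.5 nt for 5' UTR, 492.5 nt for coding and 756 nt for 3' UTR junctions, and 263 nt in noncoding transcripts. Whether the shares go with the position of the junction or with the length of the upstream exon was not tested. In the 22 transcripts with a junction in the 3' UTR, the upstream share was 78.2% and 80.5% in CASC3 footprints and 78.8% and 74.2% in RNPS1 footprints, beside 81.4% and 80.3% in RNA-seq. Noncoding transcripts had 51.9% and 50.2% in CASC3 footprints and 49.6% and 49.4% in RNPS1 footprints, against 32.3% and 33.7% in RNA-seq. Of the CASC3 counts in 5' UTR upstream exons, 5 transcripts held 18.9% in library 1 and 42.6% in library 2, CEBPG and ZNF865 first among them.

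**Figure D3:**
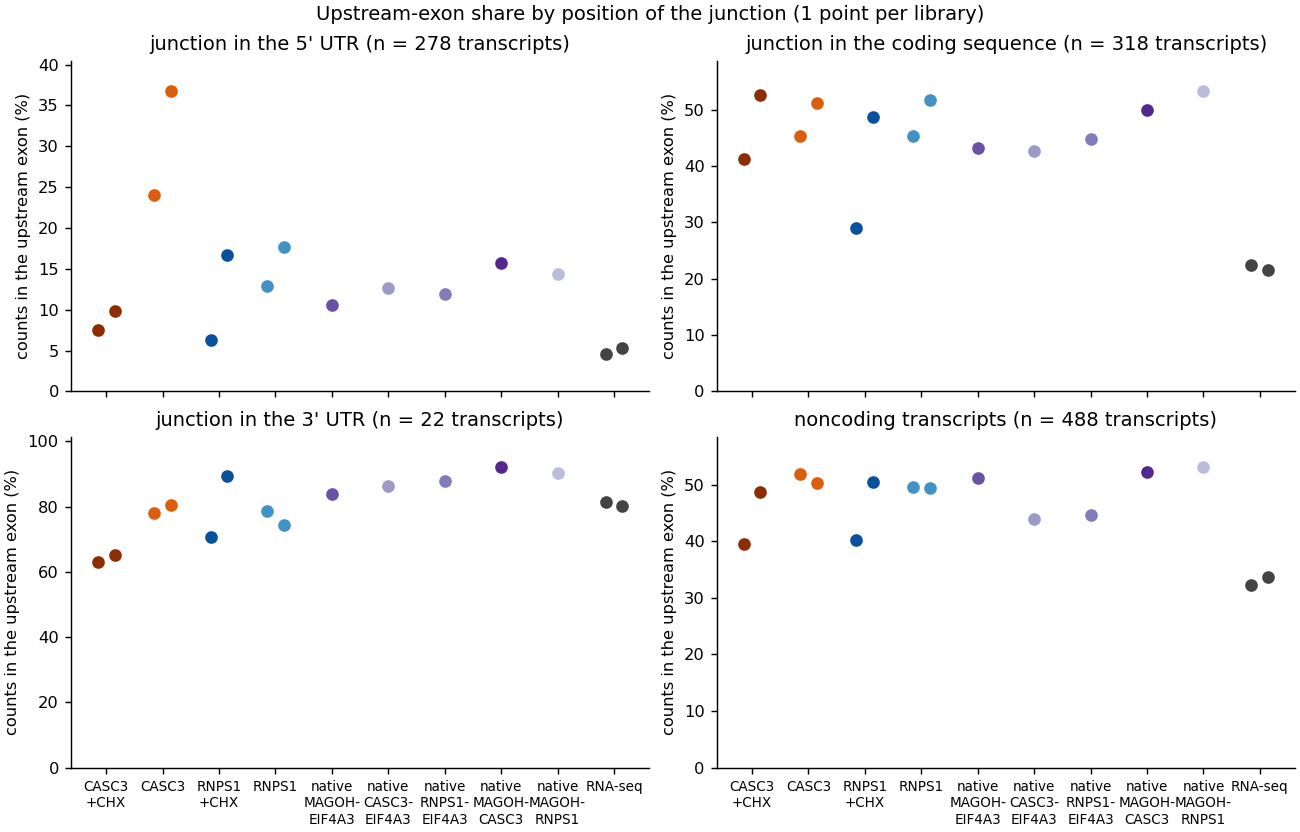
Share of counts in the upstream exon (y axis, percent) for transcripts with the junction in the 5' UTR, the coding sequence or the 3' UTR and for noncoding transcripts (panels), 1 point per library by group (x axis). For 5' UTR junctions treated CASC3 lies at 7.53% and 9.83% and untreated CASC3 at 24.1% and 36.8%.

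The lean to the upstream exon held at every length of that exon in untreated footprints. Transcripts without an overlapping gene were divided by the length of the upstream exon. For the 97 with upstream exons of 1 to 100 nt, which make up 2.47% of the exon length of their transcripts, the upstream share was 16.4% and 19.9% in untreated CASC3 footprints and 7.55% and 8.01% in untreated RNPS1 footprints, against 2.65% and 1.97% in RNA-seq. For the 217 of 201 to 400 nt it was 36.5% and 42.3% in CASC3 footprints and 32.6% and 36.3% in RNPS1 footprints, against 17.1% and 19.6% in RNA-seq. For the 95 above 800 nt it was 66.8% and 70.9% in CASC3 footprints and 70.3% and 71.2% in RNPS1 footprints, against 47.2% and 44.8% in RNA-seq. These crosslinked CASC3 and RNPS1 footprints stand apart for the shortest upstream exons and overlap or nearly so for the longest. Treated CASC3 footprints had 3.25% and 5.75% in the shortest class and 53.3% and 65.3% in the longest.

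**Figure D4:**
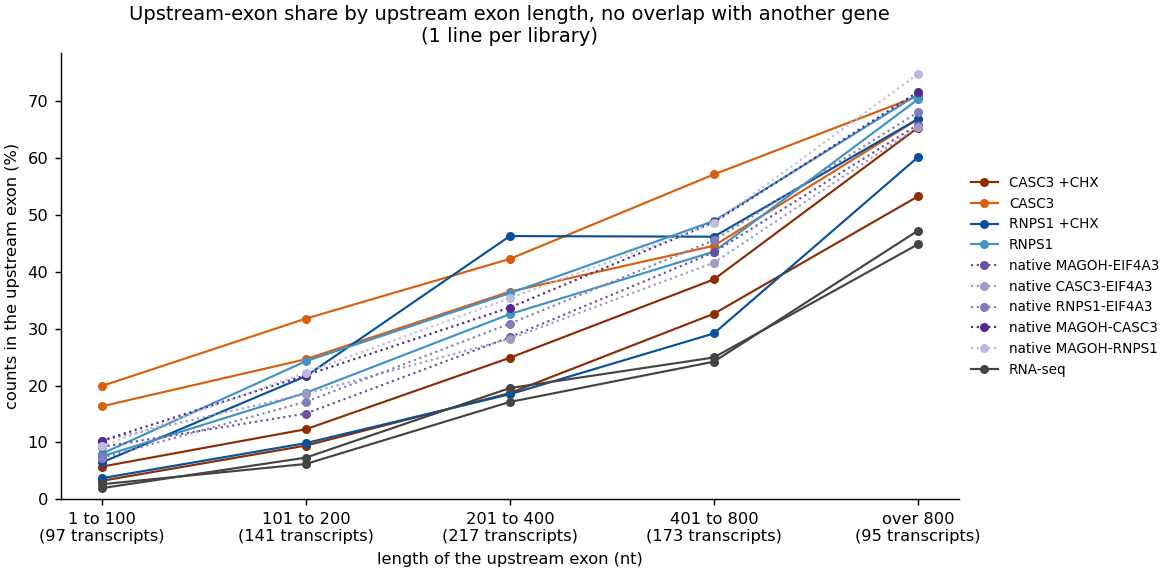
Share of counts in the upstream exon (y axis, percent) by length of the upstream exon (x axis, nt), 1 line per library, for the two-exon transcripts without an overlapping gene. The share is higher in each longer class except in treated RNPS1 library 2, where 201 to 400 nt and 401 to 800 nt have 46.3% and 46.2%, and the untreated footprints lie above both RNA-seq lines in each length class.

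With cycloheximide, many upstream exons and fewer downstream exons had lower levels in CASC3 footprints. The samples hold no RNA-seq of treated cells, so here and below a change of footprints cannot be told apart from a change of RNA level. Of 938 exons that passed the filter in the crosslinked fit, 391 were upstream exons, of which 4 were higher and 151 lower with cycloheximide (median log2 fold change -2.37), and 544 were downstream exons, of which 3 were higher and 95 lower (median -1.002). Over all 104449 exons tested, edgeR called 18.5%, 7.22% as higher and 11.3% as lower, with a median of 0.20. With DESeq2 size factors that median was 0.65, and 8 upstream exons were higher and 121 lower, and 10 downstream exons higher and 63 lower. Upstream exons with a 5' UTR junction had 47 of 68 lower and 1 higher, those with a coding junction 53 of 177 lower and 2 higher, and noncoding ones 41 of 114 lower. Exons can pass this filter through untreated footprints alone, which favours calls as lower: in the fit of treated footprints with RNA-seq, 36 upstream exons with a 5' UTR junction passed. With no filter, 5 of 755 upstream exons were higher and 108 lower (median -1.76), and 2 of 986 downstream exons higher and 40 lower (median -0.71). The total of 253 calls depended on the libraries: it was 123 without CASC3 library 1, 49 without CASC3 library 2, 147 without RNPS1 library 1, 133 without RNPS1 library 2, 14 without treated CASC3 library 1, 12 without treated CASC3 library 2, 404 without treated RNPS1 library 1 and 434 without treated RNPS1 library 2. First exons of transcripts with 3 or more exons were lower in 4216 of 8141 and higher in 11 in the same test, and their last exons were lower in 377 and higher in 771 of 10150.

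CEBPG was among the upstream exons that fell, with 0.496 and 0.597 CPM in treated CASC3 footprints, against 31.8 and 297 CPM in untreated ones (-8.25 ± 1.11, edgeR adjusted p = 4.3e-10). The ZNF865 upstream exon had 0.124 and 0 CPM with cycloheximide, against 41.3 and 126 CPM without. These are 1 count and 139 counts, a 1180-fold lower level with an exact counting interval of 208 to 46957. The untreated CASC3 libraries alone suffice to pass this exon through the filter, so the ratio only describes it. CDK5R1 had 2 counts with and 31 without, a 132-fold lower level (33.5 to 1135), a call that edgeR lost without treated CASC3 library 1 (adjusted p = 0.062). In each of these 3 genes both treated libraries lie below both untreated ones. The choice of named exons in part required groups that do not overlap, and 652 of the 938 tested exons had them. MARCKS had 3.60 and 2.98 CPM upstream in treated CASC3 footprints, against 41.3 and 47.9 CPM in untreated ones (-3.72 ± 0.92, edgeR adjusted p = 0.0015), lost without CASC3 library 2 (-3.39, adjusted p = 0.059), treated CASC3 library 1 (-3.79, adjusted p = 0.11) or treated CASC3 library 2 (-3.57, adjusted p = 0.14). C1orf216 had 4.47 and 3.88 CPM in treated CASC3 footprints, against 25.4 and 44.1 CPM in untreated ones (-3.04 ± 0.89, edgeR adjusted p = 0.0088), lost without the same libraries (-2.35, -3.08 and -2.92, with adjusted p = 0.24, 0.18 and 0.21).

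Few exons were higher with cycloheximide: 4 upstream exons, of ID1, EGR1, ZNF654 and UTP14C, and 3 downstream exons, of MSX2, ZNF654 and a clone transcript, the last of these named after its values were seen. ID1, an inhibitor of bHLH transcription factors, had 35.6 and 37.5 CPM in its upstream exon (chr20:31605283-31605813) in treated CASC3 footprints, against 0 and 2.52 CPM in untreated ones. These are 538 counts and 2 counts, 31.7-fold higher with an exact counting interval of 8.73 to 262, and edgeR's adjusted p of 0.0010 became 0.13 without CASC3 library 1 and 0.051 without treated CASC3 library 2. EGR1, an immediate early zinc finger factor, had 2.85 and 28.2 CPM upstream (chr5:138465490-138466068) with cycloheximide, against 1.06 and 0 CPM without. Treated library 2 is much the higher, the ratio is 24.96 (4.43 to 991), and edgeR's call was lost without it (adjusted p = 0.48), without CASC3 library 1 (adjusted p = 0.087) or without CASC3 library 2 (adjusted p = 0.18). The upstream exon of ZNF654 had 31.0 and 60.1 CPM with cycloheximide, against 3.18 and 0 CPM without, a ratio of 25.6 (8.73 to 125). It overlaps another gene, whose reads cannot be told apart, and lost edgeR's call without CASC3 library 2 (adjusted p = 0.12) or treated CASC3 library 2 (adjusted p = 0.076).

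**Figure D5:**
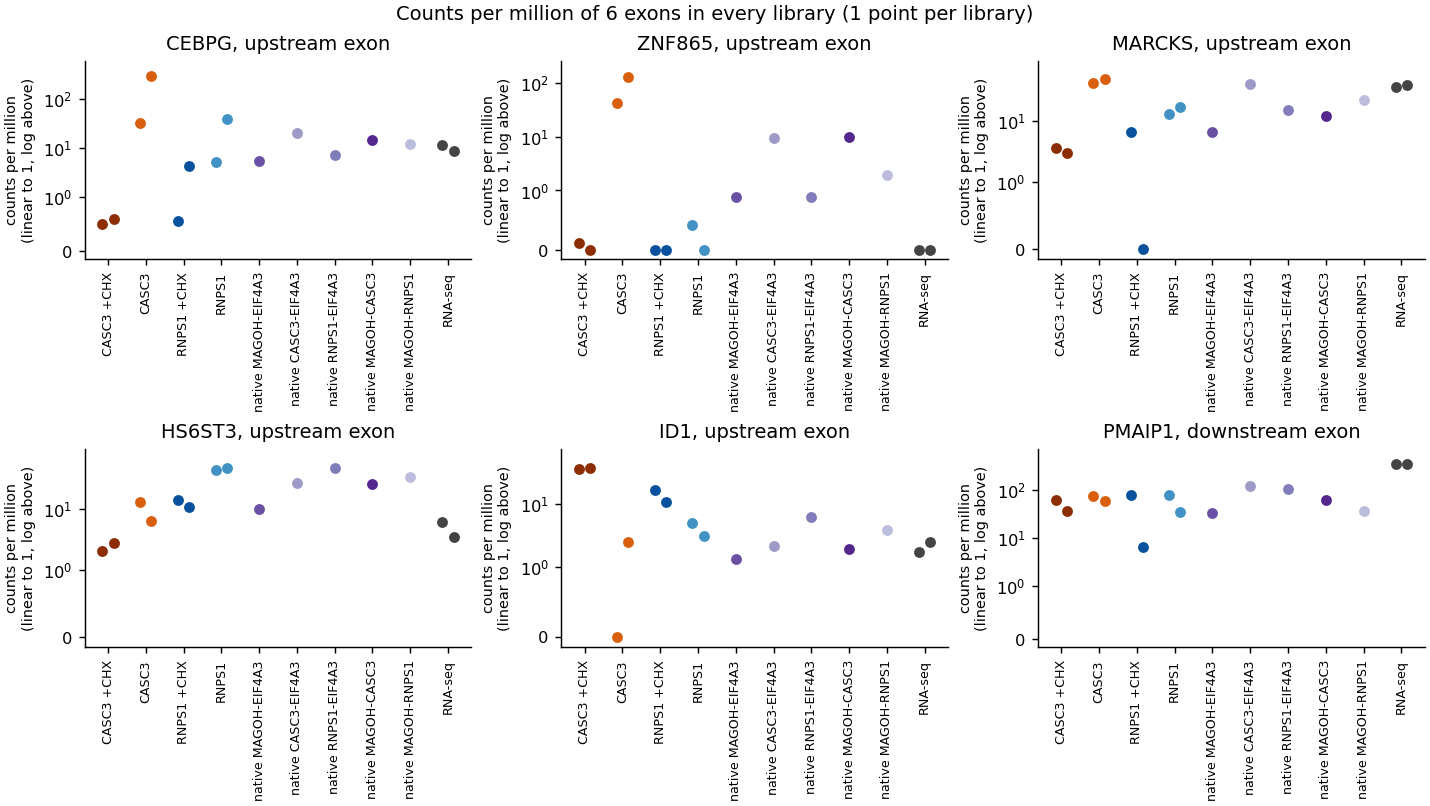
CPM (y axis, linear up to 1 and logarithmic above) of 6 exons, 1 point per library by group (x axis). The CEBPG and ZNF865 upstream exons stay below 1 CPM in treated CASC3 footprints and reach 297 and 126 CPM in untreated ones, while the ID1 upstream exon is at 35.6 and 37.5 CPM in treated CASC3 footprints, against 0 and 2.52 CPM in untreated ones.

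In RNPS1 footprints 2 of the 938 tested exons differed with cycloheximide by edgeR's quasi-likelihood test, 1 upstream exon in each direction, where 0.196% of all exons tested were called, 0.0756% as higher and 0.121% as lower. The lower one was the upstream exon of CEBPG, with 0.552 and 4.28 CPM in treated RNPS1 footprints, against 5.10 and 38.6 CPM in untreated ones (-4.39 ± 1.12, edgeR adjusted p = 0.0496). The call lies at the threshold and was lost in 13 alternatives, among them leaving out each library other than treated RNPS1 library 2, with adjusted p between 0.11 and 1.0. The higher one was the upstream exon of HIST1H2BC, a histone H2B gene, named after its values were seen, with 27.9 and 212 CPM in treated RNPS1 footprints (202 and 99 counts), against 15.3 and 1.69 CPM in untreated ones (36 and 7 counts). The shallow treated library 2 is much the higher, and the change of 3.71 ± 0.91 (edgeR adjusted p = 0.041) was 1.80 without it (adjusted p = 0.033) and missed the threshold without any 1 of the 6 libraries other than the treated RNPS1 pair. Histone H2B genes are near-identical copies of each other, so these reads may be split between them. The count of 2 was 26 without treated RNPS1 library 1 and 145 without treated RNPS1 library 2, the shallow library, and 0 without any 1 of the other 6. The interaction of protein and cycloheximide passed for 5 exons, 3 upstream and 2 downstream, all with a lower value in CASC3, where 0.394% of all exons tested were called, 0.0201% as higher and 0.374% as lower.

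Treated footprints over RNA-seq, a comparison of treated with untreated cells, were lower for most called exons. Of 1011 exons that passed this filter, CASC3 with cycloheximide had 2 upstream exons higher and 98 lower of 322, and 1 downstream exon higher and 389 lower of 685, where 12.7% of all exons tested were called, 7.19% as higher and 5.46% as lower. The higher ones were both exons of ID1 and the upstream exon of a clone transcript that overlaps IRS4. RNPS1 with cycloheximide had 2 upstream exons higher, both of clone transcripts, and 16 lower, and 109 downstream exons lower, where 2.89% were called, 0.614% as higher and 2.27% as lower. With library totals the median of all exons in RNPS1 was 1.07 in place of 0.36, and 4 upstream exons were higher and 7 lower. Without treated CASC3 library 1 or 2 the CASC3 total of 492 and the RNPS1 total of 128 both became 0, and without treated RNPS1 library 2 they became 824 and 434. Without RNA-seq library 1 or 2 the CASC3 total was 16 each time and the RNPS1 total 1 and 0. Without treated RNPS1 library 1 the RNPS1 total was 335.

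The downstream exon of PMAIP1 was lower in both treated footprints. It had 61.4 and 35.2 CPM in treated CASC3 footprints and 77.8 and 6.41 CPM in treated RNPS1 footprints, against 340.5 and 345 CPM in RNA-seq (-3.10 ± 0.80 for CASC3, edgeR adjusted p = 0.0043, and -3.55 ± 0.82 for RNPS1, adjusted p = 0.0027). CEBPG downstream had 30.8 and 12.8 CPM in treated RNPS1 footprints, against 340.5 and 329.6 CPM in RNA-seq (-4.52 ± 0.87, edgeR adjusted p = 0.00016). ID1 upstream was higher in treated CASC3 footprints at 35.6 and 37.5 CPM, against 1.75 and 2.54 CPM in RNA-seq (3.81 ± 1.099, edgeR adjusted p = 0.012). Each of these 4 calls was lost when any 1 of the treated CASC3 or RNA-seq libraries was left out: the changes then ran from -3.45 to -2.69 and from -3.54 to -3.40 for PMAIP1, from -4.55 to -4.43 for CEBPG and from 3.73 to 4.36 for ID1, with adjusted p of 0.27 or more.

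Exon use in treated CASC3 footprints was called in 18 of 245 tested transcripts, with the upstream exon gaining in 15 and losing in 3, where 37.9% of all transcripts tested were called. ONECUT2, a transcription factor of the CUT homeobox family, was among those that gained, with 98 upstream and 131 downstream counts in treated CASC3 footprints, against 14 and 266 in RNA-seq (edgeR adjusted p = 0.0090). In treated RNPS1 footprints 1 transcript gained, where 6.06% were called. The count of 18 became 0 without either treated CASC3 library or either RNA-seq library (for ONECUT2, adjusted p between 0.21 and 0.91), 36 without treated RNPS1 library 1 and 74 without treated RNPS1 library 2. The count of 1 became 69 and 17 without those 2 libraries, in that order, and 0 without any 1 of the other 4.

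Where the upstream share is taken for single genes, several had RNA-seq-like values with cycloheximide. PMAIP1 had 15.1% upstream in treated CASC3 footprints and 45.3% in untreated ones, beside 16.2% in RNA-seq. YWHAH had 11.2% in treated CASC3 footprints (7.65% to 16.1%) and 72.2% in untreated ones (56.0% to 84.2%), beside 12.9% in RNA-seq. For CEBPG the values were 2.87% with cycloheximide and 80.6% without, beside 2.86% in RNA-seq. Not every gene did this: PCDH7 kept 93.5% (91.6% to 94.99%) in treated CASC3 footprints, against 81.2% in RNA-seq, and MSL2 had 49.4% in treated and 47.9% in untreated CASC3 footprints. Over all transcripts with a 5' UTR junction, the share was 7.53% and 9.83% in treated CASC3 footprints and 24.1% and 36.8% in untreated ones. With a coding junction it was 41.2% and 52.6% in treated CASC3 footprints and 45.3% and 51.2% in untreated ones, which overlap. That overlap rests on a few large transcripts: without the 10 with the most counts the shares were 32.5% and 43.2% in treated CASC3 footprints and 44.3% and 49.0% in untreated ones, which do not overlap.

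The native libraries have no replicates, and their values for the main genes are given as measured. The HS6ST3 upstream exon had 33.2 CPM in MAGOH-RNPS1, 25.6 in MAGOH-CASC3, 45.7 in RNPS1-EIF4A3, 26.7 in CASC3-EIF4A3 and 9.99 in MAGOH-EIF4A3, against 6.11 and 3.38 CPM in RNA-seq. All 5 native values lie above both RNA-seq values. The ZNF865 upstream exon had 1.91, 9.86, 0.896, 9.62 and 0.888 CPM in the same order of pairs, so the highest 2 are the pairs that contain CASC3, and it was at 0 in RNA-seq. The PCDH7 downstream exon was at 0 to 1.97 CPM in the native libraries, against 28.8 and 25.4 CPM in RNA-seq. CEBPG upstream ran from 5.33 CPM in MAGOH-EIF4A3 to 20.3 CPM in CASC3-EIF4A3, around the 11.3 and 8.45 CPM of RNA-seq.

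Gene groups, matched by the form of their symbols, are described by counts and medians, and none was tested against the other exons. Over all tested two-exon downstream exons, 314 of 398 were lower in CASC3 and 334 of 398 in RNPS1 footprints than in RNA-seq, and over upstream exons 43 and 67 of 157. With cycloheximide in CASC3 footprints 151 of 391 upstream exons were lower, at a median of -2.37. Group counts of a few exons near these are no trait of a group. Of 19 two-exon transcripts of immediate early and unstable regulators (such as BTG1, IER2, IRS2 and EGR1), 10 of 13 tested downstream exons were lower in CASC3 footprints than in RNA-seq and 11 of 13 in RNPS1 footprints, with medians of -2.76 and -2.49. With cycloheximide in CASC3 footprints, 2 of their 10 tested upstream exons were higher, ID1 and EGR1, and 1, that of TOB2, was lower. Of 45 zinc finger transcripts, 22 of 31 tested downstream exons were lower and 1 higher in CASC3 footprints, and 24 of 31 were lower in RNPS1 footprints. Their upstream exons with cycloheximide in CASC3 footprints were lower in 9 of 14 and higher in 1, with a median of -5.25.

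Ribosomal and mitochondrial protein genes (10 transcripts, among them COX8A, MRPL57, RPL36AL and UQCR10) had all 6 tested upstream exons lower in RNPS1 footprints than in RNA-seq, with a median of -2.83, beside -0.84 over all tested two-exon upstream exons, and 3 of 6 in CASC3 footprints. Between the footprints, 3 of 6 were higher in CASC3, with a median of 2.12, beside 22 of 157 two-exon upstream exons, and 6 of 7 were lower with cycloheximide in CASC3 footprints, with a median of -3.95. The group holds 1 antisense RNA, NDUFB2-AS1, by its symbol. RPL36AL has a near-identical paralog, RPL36A, so its reads may be split between copies. Antisense and intergenic noncoding RNAs (70 transcripts) had 9 of 11 tested downstream exons lower in CASC3 footprints and 9 of 11 in RNPS1 footprints. Their summed level was 79.4 and 52.4 CPM in treated CASC3 footprints, against 259.6 and 302.3 CPM in untreated ones, and 9 of 16 tested upstream exons were lower with cycloheximide, with a median of -3.62. SnoRNA host genes (5 transcripts, such as SNHG3 and SNHG19) had 2 of 5 tested upstream exons lower with cycloheximide in CASC3 footprints, with a median of -2.74, near the values over all two-exon upstream exons.

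The remaining groups had few tested exons. For downstream exons of homeobox and forkhead factors (25 transcripts, such as MSX2, with the noncoding FOXP1-IT1 and FOXP4-AS1 among them by symbol) 4 of 8 were lower than in RNA-seq in CASC3 and 5 of 8 in RNPS1 footprints, smaller shares than over all two-exon downstream exons. For receptors (18 transcripts, such as FZD5 and GPR63) it was 5 of 6 in each, and for connexins and claudins (6 transcripts, such as GJA1) 3 of 3 in each. BTB and Kelch proteins (3 transcripts) had 2 of 2 lower in each. The 7 bHLH transcripts (such as TWIST1 and HAND2) had 1 tested upstream exon against RNA-seq, which passed in neither direction, with log2 fold changes of -0.04 in CASC3 and -0.19 in RNPS1 footprints.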

How the data were processed

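RIPiT-Seq footprints and RNA-seq of HEK293 Flp-In TRex cells were used as a table of raw counts for each exon, deposited without normalisation. A transcript table was not used. Per the submitters' processing notes, cutadapt 1.16, TopHat2 2.1.1 and bedtools were used with hg38. Whether counting used strand, and how reads spanning a junction were assigned, is not given in the sources used here. Lines without an exon name (19) were left out. Totals ran from 467700 to 8056882 counts per library.

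Exons of two-exon transcripts were ordered by strand into upstream and downstream, and placed on GENCODE v29 transcripts. All exons of the table that passed filterByExpr (minimum count 10) were fitted with edgeR 4.0.16 (quasi-likelihood test, TMM, Benjamini-Hochberg adjusted p under 0.05) in 3 fits, of the untreated libraries with RNA-seq, the treated libraries with RNA-seq, and the 8 crosslinked libraries. Exon use was tested with diffSpliceDGE. CPM used library totals. Shares of a library were compared by an exact permutation test (SciPy 1.17.1). The tests were run on simulated counts first. DESeq2 1.42.0, other scalings, no filter, a replicate block, a fit of 10 libraries, a summed count of 100 and leaving out each library were alternatives. Leaving out transcripts that overlap another gene was added after seeing the data.

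The members, gene lists and tests were chosen with earlier results of these data known. Named genes have official symbols and were taken as the 10 largest by summed count, up to 8 upstream and 4 downstream exons per comparison and direction by fold change among called exons with average log2 CPM of at least 2 and groups that do not overlap, the 8 smallest p per exon use comparison, and up to 4 per list, of which fewer are printed. The labels do not say that replicates came from separate cultures, so p-values measure the spread between these samples. Intervals and floors (3 counts) cover counting error only, since reads carry no molecular identifiers.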

Additional observations from a re-analysis of the deposited data

Results flagged for a closer look

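For 5 exons the effect of cycloheximide in CASC3 footprints minus that in RNPS1 footprints passed an interaction test by edgeR's quasi-likelihood test with Benjamini-Hochberg adjustment. The difference (log2) was -6.26 for the upstream exon of CDCA4 (adjusted p = 0.017), -5.84 for that of RPL36AL (adjusted p = 0.033) and -6.43 for that of GEMIN4 (adjusted p = 0.043). It was -5.42 for the downstream exon of HIC1 (adjusted p = 0.021) and -5.34 for that of the clone transcript RP11-1055B8.4 (adjusted p = 0.044). The fitted effects in CASC3 footprints lay between -7.09 and -4.26, and those in RNPS1 footprints between -0.78 and 1.59. The upstream exon of RPL36AL had 14.97 CPM in the shallow treated RNPS1 library 2 and 1.24 CPM in library 1, and CDCA4 had 23.5 and 0.276 CPM in the same libraries, libraries that stand apart from each other. HIC1 had 0.621 and 0.895 CPM in treated CASC3 footprints, against 5.30 and 103 CPM in untreated ones, and 2.07 and 25.7 CPM in treated RNPS1 footprints, against 6.38 and 25.3 CPM in untreated ones, so library 2 is the higher in each group. GEMIN4 had 0.690 and 4.28 CPM and RP11-1055B8.4 4.83 and 19.2 CPM in treated RNPS1 footprints. The part of single libraries in these differences was not tested.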

How the results depend on the processing

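Of the 275 settings tried on the summary results, 182 left them as they were, 87 moved them and 6 took a permutation test out of reach of the threshold; no tested value changed sign, and 1 value without a test did, the noncoding upstream share below; the 50 named exon results kept their call in 514 of 604 settings and their direction in all 604, and 23 held throughout. The cause of each move was not tested. Counts of called exons without a filter became 633 for RNPS1 over RNA-seq, 285 and 26 for treated CASC3 and RNPS1 over RNA-seq, 155 and 0 for cycloheximide in CASC3 and RNPS1, and 150, 159, 11 and 2 for exon use in CASC3, in RNPS1, between them and in treated RNPS1. Deviations of same-numbered replicates correlated at r = 0.2589 between CASC3 and RNPS1, at 0.0488 to 0.2496 between the other footprint groups and at -0.0144 to -0.0004 with RNA-seq, of which 4 of the 6 between footprint groups lay above 0.1; with 2 replicates a group and no label that ties equal numbers, they were not taken to pair the samples. The replicate block gave 69 (CASC3 over RNPS1), 308 and 51 (treated CASC3 and RNPS1 over RNA-seq), 0 (cycloheximide in RNPS1) and 0 (exon use, treated RNPS1), and changed no other count by over 1.5 times. The fit of 10 libraries gave 254 (CASC3 over RNA-seq), 4 (CASC3 over RNPS1), 0 (cycloheximide in RNPS1), 1 (exon use between the footprints) and 6 (exon use, treated RNPS1). The DESeq2 Wald test gave 25 (CASC3 over RNPS1) and 162 (cycloheximide in CASC3). Library totals gave 65 (treated RNPS1 over RNA-seq), and both totals and DESeq2 size factors gave 1 (cycloheximide in RNPS1) and 3 (exon use, treated RNPS1). The median of all exons moved to 0.31 with DESeq2 size factors in RNPS1 over RNA-seq, to 1.03 with library totals in treated CASC3 over RNA-seq and to 0.28 with DESeq2 size factors for cycloheximide in RNPS1. A summed count of 100 gave 324 and 81 for treated CASC3 and RNPS1 over RNA-seq.

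Without transcripts that overlap another gene, fewer exons were counted, with 253, 273 and 22 calls for CASC3 and RNPS1 over RNA-seq and CASC3 over RNPS1, 153 for cycloheximide in CASC3, and 37, 39, 8 and 0 for exon use in CASC3, RNPS1, treated CASC3 and treated RNPS1. The change of the upstream share with cycloheximide in CASC3 was -12.6 points for 3' UTR junctions, in place of -15.3, and 0.64 for noncoding transcripts, in place of -6.89, a change of sign; without the 10 largest transcripts it was -8.78 for coding junctions, in place of -1.36. Leaving out single libraries gave 6 to 59 calls for CASC3 over RNPS1, 0 to 824 and 0 to 434 for treated CASC3 and RNPS1 over RNA-seq, 12 to 434 and 0 to 145 for cycloheximide in CASC3 and RNPS1, and 42 to 88, 1 to 23, 0 to 74 and 0 to 69 for exon use in RNPS1, between the footprints and in treated CASC3 and RNPS1. The difference of footprints from RNA-seq ran from 19.1 to 20.8 points for the upstream share, from -1.21 to -1.14 points for the two-exon share and from 1.80 to 2.12 (log2) for downstream exons against single-exon transcripts. Without 1 of the RNA-seq libraries those 3 permutation tests cannot reach the threshold.

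Limits: each group has 2 libraries, or 1 for native footprints, and treated RNPS1 is limited by its shallow library 2. With edgeR, cycloheximide in RNPS1 called 2 exons where 75 had an unadjusted p under 0.05.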
